A study of Mus musculus with 4 samples.

Results

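The Obox genes, oocyte-specific homeobox genes of mouse chromosome 7, were followed on 4 one-colour Agilent arrays of E14tg2a cells, a line of mouse embryonic stem (ES) cells. Their probes were selected by name: every non-control probe whose gene name on the array begins with Obox was taken, which gave 8 of 39429 probes and 4 of 30199 gene names (Obox1, Obox3, Obox5 and Obox6). The family itself was chosen by measured values, since its probes were known to be higher on the arrays of Rif1-depleted cells, so the differences from control siRNA below are a description with no test. The 4 groups were untreated cells, cells 72 h after transfection of control siRNA, and cells 48 h or 72 h after transfection of Rif1 siRNA. All cells were the same line, and Rif1 siRNA was a mixture of siRNAs against the Rif1 transcript, of which one targets its noncoding end. The depletion was therefore a transient knockdown, and no single siRNA was tested on its own array. Each group had 1 array, all on the same slide, so no replicate backs a difference, no p-value is given, and condition and array cannot be told apart.

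Obox proteins are homeodomain transcription factors of the paired-like class. The family is thought to have arisen by repeated duplication of Crx, the photoreceptor homeobox gene beside which it still lies, and its genes are known for expression in oocytes and in the embryo around the time its own genome is activated. Many transcripts of that embryonic stage, called 2C genes after the 2-cell embryo, also appear in a small and changing share of ES cells. RIF1, the protein depleted here, is a chromatin factor that acts in replication timing and in gene silencing.

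A sequence of the family is shown for each gene the array reads, to tell what each probe recognises. The Obox5 probe is given whole because it reads through the homeodomain, and capitals mark the codons of 4 residues of the DNA-recognition helix, found in its reading frame 3. The other lines give the first 30 of 60 bases of the probe that results turn on, all in lower case because no motif was sought in them.
Obox5 (A_52_P178963): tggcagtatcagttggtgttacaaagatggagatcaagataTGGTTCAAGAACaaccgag
Obox1 (A_55_P2034207): gaagcatcataccactgtgttttatgtagt
Obox3 (A_55_P2052076): caggaaccctcatatacatgcagaacttgc
Obox6 (A_66_P124638): gtgtatttggagaaattaagtaggtctatc

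By the RefSeq accessions that the array files attach to probes, both Obox1 probes were annotated for Obox1 and Obox2, and the Obox5 probe for Obox2, Obox3 and Obox5. Their signal can therefore come from any of those genes. Of the 4 Obox3 probes, 3 were annotated for Obox3 alone and 1 (A_55_P2024611) carried no accession of the RefSeq table. The Obox6 probe was annotated for Obox6 alone. No pair of Obox probes shared a run of 16 bases, and 7 of the 8 shared none with any other probe of the array. The remaining probe, A_55_P2138422 of Obox1, shared such a run with 1 probe, A_55_P2015019.

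The quantity reported for a probe is its expression level, that is, the processed signal over the 75th percentile of all signals of the array, and the error given with it is the software's error of that spot. A probe that the software did not mark as well above background is called dim. Of the Obox probes, 7 were dim on both arrays without Rif1 siRNA, and only the Obox6 probe was well above background on all 4 arrays. Where the control was dim, the fold is a lower bound, taken against the probe's own signal or the array's detection floor, whichever is higher. The floor, the lowest level marked well above background, was 0.0236 for untreated cells, 0.0159 for control siRNA, 0.00779 at 48 h and 0.00543 at 72 h, and the share of all probes well above background was 58.2%, 62.2%, 70.9% and 73.5% in the same order. The arrays of Rif1-depleted cells thus detected dimmer probes than the other arrays, and the part of this in the results below was not tested.

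The targeted gene and the cell type were examined first. The Rif1 probe had a level of 5.55 without treatment, 5.42 after control siRNA, 2.15 at 48 h and 4.15 at 72 h, so it was lower than after control siRNA at both times, and less so at 72 h. The 6 ES cell markers (Pou5f1, Sox2, Nanog, Zfp42, Esrrb and Klf4) summed to between 151.0 and 175.0 on the 4 arrays over 9 probes, none of them dim on all arrays. The 3 trophoblast markers (Cdx2, Gata3 and Elf5) summed to 0.108 and 0.106 on the arrays without Rif1 siRNA and to 0.269 and 0.264 on the arrays with it, with Elf5 dim on the former. Of the fibroblast markers, Postn was dim on all arrays and Thy1 had levels between 3.11 and 3.50. Col1a1 had levels of 0.340 and 0.341 on the arrays without Rif1 siRNA, 0.493 at 48 h and 0.601 at 72 h, and Col1a2 had 0.316, 0.309, 0.451 and 0.545 in the same order of arrays, so both collagens were higher with Rif1 siRNA. The primitive endoderm markers summed to between 1.11 and 1.73, the mesoderm markers to between 0.0932 and 0.124 and the neural markers to between 0.285 and 0.335. The part of any of these markers in the Obox values was not tested.

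Obox1, with Obox2 read by the same probes, was dim without Rif1 siRNA and detected with it. The probe A_55_P2034207 (chromosome 7, 16142097 to 16142156, plus strand; all probe positions are on mm9) had a level of 0.00537 ± 0.00535 in untreated cells, 0.00357 ± 0.00356 after control siRNA, 0.0920 ± 0.00936 at 48 h and 0.0732 ± 0.00745 at 72 h. Both arrays with Rif1 siRNA stood above both arrays without it. The raw mean signal of the spot was 46.4 over a local background of 36.0 with control siRNA, and 171.3 over 34.0 at 72 h. Its level was at least 5.80-fold that of control siRNA at 48 h and at least 4.61-fold at 72 h. Against untreated cells, whose detection floor was higher, the bound at 72 h was 3.10-fold.

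The other Obox1 probe, A_55_P2138422 (chromosome 7, 16141576 to 16141635, plus strand), lies just upstream on the same strand. Its levels were 0.0152 in untreated cells, 0.0110 after control siRNA, 0.0534 at 48 h and 0.0470 at 72 h. It ordered the arrays with Rif1 siRNA above the others as the first probe did, with bounds of at least 3.37-fold at 48 h and 2.97-fold at 72 h. Against untreated cells its bound at 72 h was 1.995-fold, just under the 2-fold threshold. The local background of this spot carried a population outlier flag on every array, whereas its signal carried none.

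Obox3 was read by 4 probes on the minus strand between 16210655 and 16212096 of chromosome 7, and they did not behave alike. The probe A_55_P2052076 (16210682 to 16210741) had levels of 0.00549 in untreated cells, 0.00363 after control siRNA, 0.0670 ± 0.00693 at 48 h and 0.0582 ± 0.00599 at 72 h. It was dim on the arrays without Rif1 siRNA and, against control siRNA, at least 4.22-fold higher at 48 h and 3.67-fold higher at 72 h. Its bound at 72 h against untreated cells was 2.47-fold. The probe A_55_P2015012 (16211085 to 16211144) gave 0.00570, 0.00377, 0.0546 and 0.0498 in the same order of arrays. Its bounds were 3.44-fold at 48 h and 3.14-fold at 72 h against control siRNA, and 2.11-fold at 72 h against untreated cells.

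The remaining Obox3 probes gave little or no signal. The probe A_55_P2131659, of which the array files place 30 bases (16210655 to 16210684), was dim without Rif1 siRNA and reached 0.0164 ± 0.00289 at 48 h and 0.0119 ± 0.00224 at 72 h. These levels were well above background on their own arrays, but stood near or under the detection floor of the control siRNA array, so the bound was 1.03-fold at 48 h and no fold could be given at 72 h. The probe A_55_P2024611 (16212037 to 16212096) was dim on all 4 arrays, with a raw signal of 37.7 over a local background of 37.0 at 72 h.

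Obox5, known as an ovary-expressed member, was not detected. The 60 bases of its probe A_52_P178963 are placed over 520 bases of the plus strand (16343390 to 16343909). The levels were 0.00746 ± 0.00742 in untreated cells, 0.00505 ± 0.00502 after control siRNA, 0.00891 ± 0.00260 at 48 h and 0.00423 ± 0.00199 at 72 h. All 4 were dim, so no difference was detectable at this signal, although the same probe is annotated for Obox2 and Obox3, for each of which at least 1 other probe was detected with Rif1 siRNA.

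Obox6, a member expressed in the preimplantation embryo, was the only one measured in every condition. Its probe A_66_P124638 (16418693 to 16418752, minus strand) had a level of 0.0931 ± 0.0108 in untreated cells, 0.134 ± 0.0139 after control siRNA, 0.331 ± 0.0331 at 48 h and 0.449 ± 0.0450 at 72 h. The 4 levels were ordered in that sequence, from the lowest to the highest. Against control siRNA the level was 2.47-fold at 48 h, a log2 difference of 1.30 ± 0.21, and 3.35-fold at 72 h, a log2 difference of 1.75 ± 0.21, where the errors combine the software's errors of the spots. Against untreated cells it was 4.83-fold at 72 h.

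**Figure D1:**
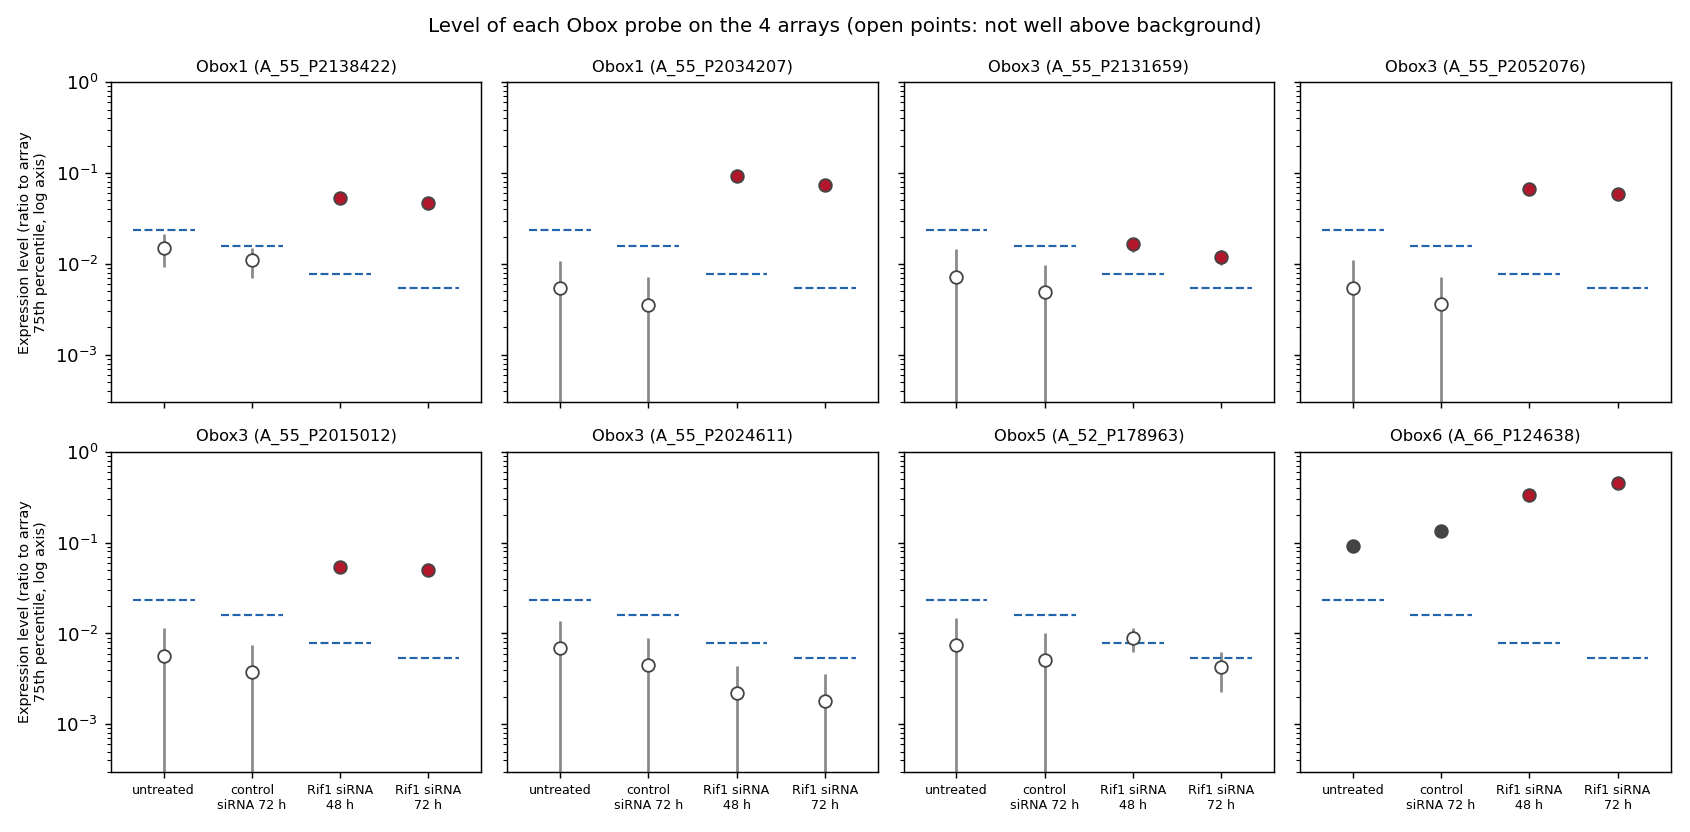
Expression level (ratio to the 75th percentile of the array, log axis) of each of the 8 Obox probes on the 4 arrays. Filled points were well above background and open points were dim, vertical lines are the software's error of the spot (cut at the lower axis where it reaches toward 0), and dashed lines are the detection floor of the array. Obox1 and 3 of the Obox3 probes turn from open to filled with Rif1 siRNA, whereas Obox6 is filled throughout and runs from 0.0931 to 0.449.

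In count, 5 of the 8 Obox probes were over 2-fold higher at 72 h of Rif1 siRNA than with control siRNA and none was over 2-fold lower. Among the 27732 probes that passed the filter on low signals, 2.82% were over 2-fold higher in this comparison; since these values chose the family, nothing is read from the contrast. Of the Obox probes, 6 passed that filter, 5 of them only through the arrays with Rif1 siRNA. The 5 probes with a value, 4 of them bounds, had a median log2 difference of 1.75, and all probes had a median of -0.05. A probe dim after control siRNA was given no value unless it exceeded that array's floor. The sign of these bounds was therefore fixed, and nothing is read from the median. At 48 h the same count was 5 of 8, beside 3.17% of all probes, with a median of 1.77 over 6 values. Both comparisons share the control siRNA array, which was harvested at 72 h, so the 48 h comparison has no control of its own time, and siRNA and culture time cannot be told apart there. With normexp background correction the count was 2 at both times, with a median of 0.86 at 72 h and 1.00 at 48 h, and with the filter required on all 4 arrays it was 1 at both times. Of the 7 Obox probes dim on both arrays without Rif1 siRNA, 5 stood well above background at both times of Rif1 siRNA, as did 21.6% of the 14504 such probes of the array. The bound was over 2-fold at both times for 4 of the 7, and for 1.34% of the 14504. In bulk samples a larger number of cells with a transcript and more RNA per cell cannot be told apart.

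**Figure D2:**
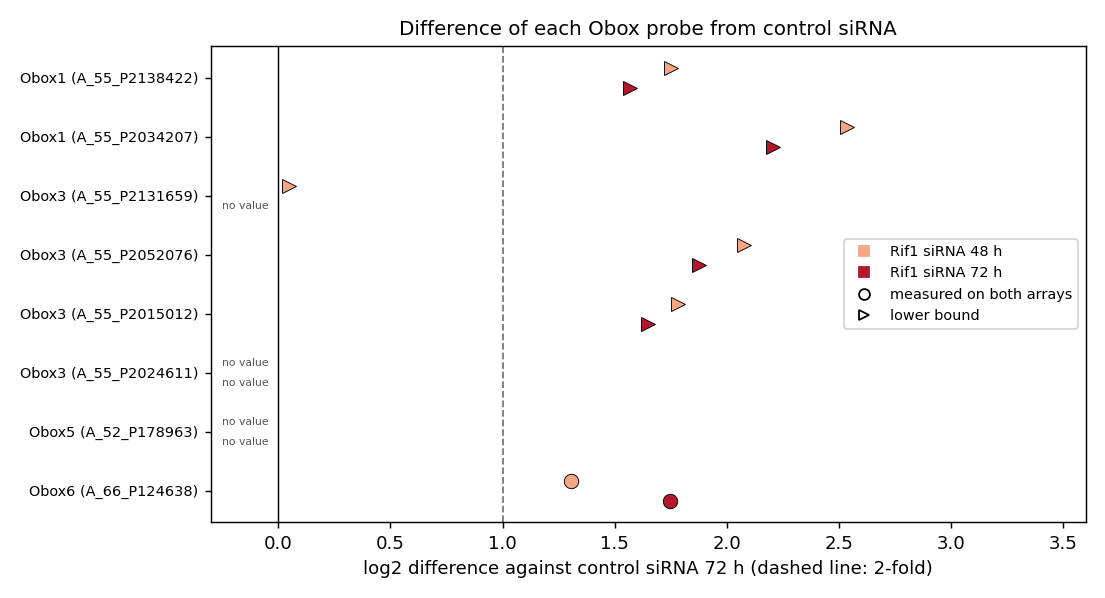
Log2 difference of each Obox probe from control siRNA at 48 h (light) and at 72 h (dark) of Rif1 siRNA. Circles were measured on both arrays and arrowheads are lower bounds. The Obox1 probe A_55_P2034207 has the highest bounds, 2.54 and 2.20. The Obox5 probe and the Obox3 probe A_55_P2024611 have no value at either time, and the Obox3 probe A_55_P2131659 has none at 72 h.

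The comparison of the times was measured on both arrays for 6 Obox probes. From 48 h to 72 h the level of Obox6 went from 0.331 to 0.449, a 1.36-fold difference (log2 0.44 ± 0.20). The 5 probes of Obox1 and Obox3 were lower at 72 h, at 0.795- and 0.880-fold for Obox1 and at 0.724-, 0.868- and 0.913-fold for Obox3. Within the software's errors of the spots, the levels at the 2 times overlapped for the Obox1 probe A_55_P2138422 and for these Obox3 probes. They did not overlap for the Obox1 probe A_55_P2034207 or for Obox6. None of these 6 differed by over 2-fold, beside 0.49% of all probes over 2-fold higher and 0.678% over 2-fold lower. The opposite signs of Obox6 and the other members were not tested.

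Control siRNA against untreated cells is a comparison that did not serve to choose the family. Only Obox6 could be compared there, and its level was 1.44-fold higher with control siRNA (log2 0.53 ± 0.22). The SD of this log2 difference over 22551 probes measured on both arrays was 0.256, a spread that includes transfection and culture and is not a replicate SD. No Obox probe was over 2-fold higher, beside 0.584% of all probes. In the other 2C genes, a list of 30 probes that includes Zscan4, Tcstv, Usp17l and Tdpoz genes, the median log2 difference in the same comparison was 0.98 over 23 values.

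The promoters of the family are shown next because Obox1 and Obox3 were both detected with Rif1 siRNA alone and their start regions share long runs of bases. RefSeq (GRCm38.p6) held a promoter window of 300 bases, from 250 before the gene start to 50 after it, for Obox1, Obox2, Obox3, Obox5 and Obox7. Each line gives the 120 bases before the start. Capitals mark a run of 25 bases found in all 5 windows and the TATA-like motif ATATATAAG.
Obox1 (chr7:15547137-15547256, plus strand): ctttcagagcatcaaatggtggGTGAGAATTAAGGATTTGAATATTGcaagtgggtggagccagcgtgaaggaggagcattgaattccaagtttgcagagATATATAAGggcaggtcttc
Obox3 (chr7:15639778-15639897, minus strand): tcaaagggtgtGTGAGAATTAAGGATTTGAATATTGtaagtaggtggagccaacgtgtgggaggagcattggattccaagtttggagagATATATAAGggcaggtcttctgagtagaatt
Obox5 (chr7:15750250-15750369, plus strand): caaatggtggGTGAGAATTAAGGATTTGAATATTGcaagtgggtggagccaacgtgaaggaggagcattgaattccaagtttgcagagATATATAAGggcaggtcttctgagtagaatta

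The 25-base run was found in these 5 of 32851 promoter windows and in no other. In Obox2, which is read by the Obox1 probes and not printed here, it began 1 base before the annotated start and crossed it, and ATATATAAG was not in that window. A longer run of 42 bases, which holds the TATA-like motif, was found in the windows of Obox1, Obox3, Obox5 and Obox7 and in no other. Over both strands, ATATATAAG was in 4 of the 5 Obox windows and in 0.207% of all windows. These 4 matches all lie in the shared run of 42 bases, so they are not independent of each other, and nothing is read from the contrast. The motif began 20 bases before the start of Obox1, 31 before that of Obox3 and 32 before that of Obox5. In Obox7 it began 6 bases before the start and crossed it. Between Obox5 and Obox7 the longest shared run was 134 bases, between Obox1 and Obox2 it was 203, and between Obox2 and Obox3 it was 25. GGATTA, a motif of the Crx and Otx class of homeodomains, was in the Obox3 window alone, beside 7.06% of all windows. TAATTG was in none, beside 8.0% of all windows, and TATAAA in 1, beside 13.6%. A match describes letters in a window and not a bound site. Obox5, whose window shares these runs, had a probe that was dim on every array, and the promoter of Obox6 was not shown.

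The gene now named Obox7 is on the array under an older name, Gm4745, and so was outside the rule by name; it was looked up after the values were seen. Its probe (A_52_P462949, chromosome 7, 15249842 to 15249901, plus strand) had levels of 0.00630 in untreated cells, 0.00473 after control siRNA, 0.0418 ± 0.00465 at 48 h and 0.0309 ± 0.00351 at 72 h. It was dim without Rif1 siRNA and detected with it, at least 2.63-fold higher at 48 h and 1.95-fold higher at 72 h. Against untreated cells the bound at 72 h was 1.31-fold. The level at 48 h stood less than 2-fold over the detection floor of untreated cells, 0.0236. As for Obox1 and Obox3, the level at 72 h was below that at 48 h, at 0.739-fold.

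The surroundings of the family were described through all 36 other probes from 500 kb before the first Obox probe to 500 kb after the last, of which 29 passed the filter. The Obox probes span 277.2 kb, and the RefSeq table lists 38 Obox4 pseudogenes, most of the 47 Obox pseudogenes it holds. At 72 h, 10 of the 36 neighbours were over 2-fold higher than with control siRNA and none was over 2-fold lower, beside the same 2.82% of all probes. Of these 10, 4 lay between the first and the last Obox probe, 2 lay before the first and 4 after the last. After the last Obox probe, 17 others were measured on both arrays and were between 0.697- and 1.21-fold, and C030044M21Rik, dim after control siRNA, had a lower bound of 1.11-fold.

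Of the neighbours over 2-fold higher, 6 were probes for transcripts without a gene symbol, 3 of them under the name NAP113099-1, and all 6 were well above background after control siRNA. The probe A_55_P2175822 (16088050, before the first Obox probe) had levels of 0.0529 in untreated cells, 0.130 after control siRNA, 3.11 at 48 h and 2.72 at 72 h, a 20.9-fold difference at 72 h. The probe A_55_P2175837 (16176744, between Obox1 and Obox3) gave 0.0168, 0.0501, 1.06 and 0.950, a 18.9-fold difference. The TC1629449 probe (16277430) was 10.3-fold higher at 72 h, and the NAP113099-1 probes were 13.5-, 16.2- and 17.3-fold higher. All 6 were lower at 72 h than at 48 h, and none shared a run of 16 bases with an Obox probe. They are not all independent of each other, since the NAP113099-1 probes A_55_P1983253 and A_55_P1957114 shared such a run, and both of these and A_55_P2175837 shared runs with a further probe, A_55_P1999756. Which gene or pseudogene they read was not assigned.

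After the last Obox probe, the genes over 2-fold higher were Crxos1 and Gpr77. Crxos1, a homeobox gene on the strand opposite Crx, had 3 probes. A_55_P1955183 went from 0.406 in untreated cells and 0.374 after control siRNA to 0.807 at 48 h and 0.898 at 72 h, which is 2.40-fold at 72 h. A_66_P123237 was dim with control siRNA and at least 4.22-fold higher at 72 h, whereas A_66_P117786 was 0.974-fold. Gpr77, a receptor of complement C5a, was 4.72-fold higher at 72 h with 1 probe and at least 2.59-fold with the other. Against untreated cells these Gpr77 probes were 4.41-fold and at least 1.74-fold, the latter under the 2-fold threshold. Crx was dim on all 4 arrays.

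**Figure D3:**
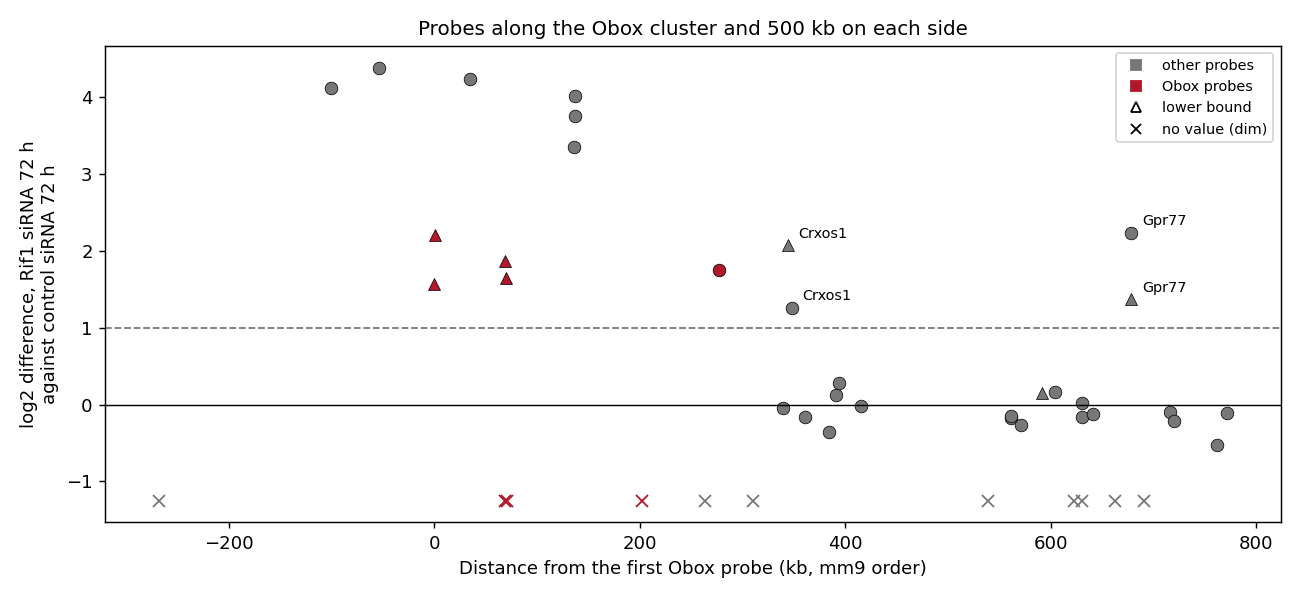
Log2 difference at 72 h, Rif1 siRNA minus control siRNA, for Obox probes (red) and the 36 other probes (grey), by distance in kb from the first Obox probe. Circles are measured, triangles are lower bounds and crosses, set at the bottom, have no value. A cross is a probe dim on both arrays, or one dim after control siRNA whose level at 72 h did not exceed that array's detection floor. The 6 grey points between 3.36 and 4.39 are the transcripts without a symbol, and most points beyond Crxos1 lie near 0.

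Other homeobox genes and genes of the oocyte were taken from lists as a frame for the family. Of 46 probes for other homeobox genes, 13 were over 2-fold higher at 72 h and 2 over 2-fold lower, with a median log2 difference of 0.59 over 37 values, beside 2.82% of all probes over 2-fold higher and 1.0% over 2-fold lower. The lower ones were 1 of the Rhox3f probes (A_55_P2080733), which was dim at 72 h and at 0.129-fold or less, and Rhox3a, at 0.220-fold. On both, control siRNA and untreated cells also differed, with Rhox3f at 0.302 in untreated cells and 0.0422 after control siRNA, and Rhox3a dim in untreated cells and 0.0531 after control siRNA. Among those over 2-fold higher at both times, the 5 genes with the highest level at 72 h were Rhox13, Duxbl2, Rhox2h, Rhox2c and Rhox2e. Rhox13, of the X-linked reproductive homeobox cluster, had a level of 2.02 after control siRNA and 4.55 at 72 h, a 2.25-fold difference. A probe of Duxbl2, a double homeobox gene, went from 0.426 to 1.09, which is 2.55-fold. Rhox2h, Rhox2c and Rhox2e were 2.28-, 2.43- and 2.19-fold higher at 72 h than after control siRNA, but 1.42-, 1.56- and 1.68-fold against untreated cells, under the 2-fold threshold. Rhox10 and another Duxbl2 probe (A_55_P1973516), also among the 13, were 1.89-fold and at least 1.72-fold against untreated cells. Rhox4a turned direction, from 2.49-fold against control siRNA to 0.418-fold against untreated cells. Rhox13, Cdx2, Gsc, Duxbl1, Rhox4g and the Duxbl2 probe given before stayed over 2-fold against untreated cells, some of them as lower bounds. Duxbl1, Gsc and Dux are given as well, chosen after their values were seen. Duxbl1 was 4.68-fold higher at 72 h and Gsc 3.39-fold. Dux, which activates 2C genes, was at least 2.38-fold higher with 1 probe (at least 1.60-fold against untreated cells) and 1.30-fold with the other. Of the 7 probes for Crx and Otx relatives, 5 had a value and 2, the Crxos1 probes named above, were over 2-fold higher at 72 h. Otx2 was 0.772- and 0.901-fold, and Crx and Otx1 were dim.

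Of the 19 probes for oocyte and maternal effect genes, 13 passed the filter, 0 were over 2-fold higher or lower at either time, and those with a value ranged from 0.823- to 1.62-fold at 72 h. Gdf9, a growth factor of the oocyte, was 1.03-fold, and Figla, an oocyte transcription factor, was 1.44-fold. Bmp15, Zp1, Zp2 and Oosp1 were dim on all 4 arrays. Of the 30 probes for other 2C genes, 26 were over 2-fold higher at 72 h, beside 2.82% of all probes, with a median log2 difference of 4.32, against 1.75 for the Obox probes with a value. The 5 with the highest levels at 72 h, from Zscan4f, Zscan4e, Gm4340, Zscan4c and Zscan4a, were 13.1-, 17.3-, 15.3-, 19.0- and 20.1-fold higher. The difference between these lists was not tested, and 4 of the 5 Obox values are lower bounds, which could only be positive.

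**Figure D4:**
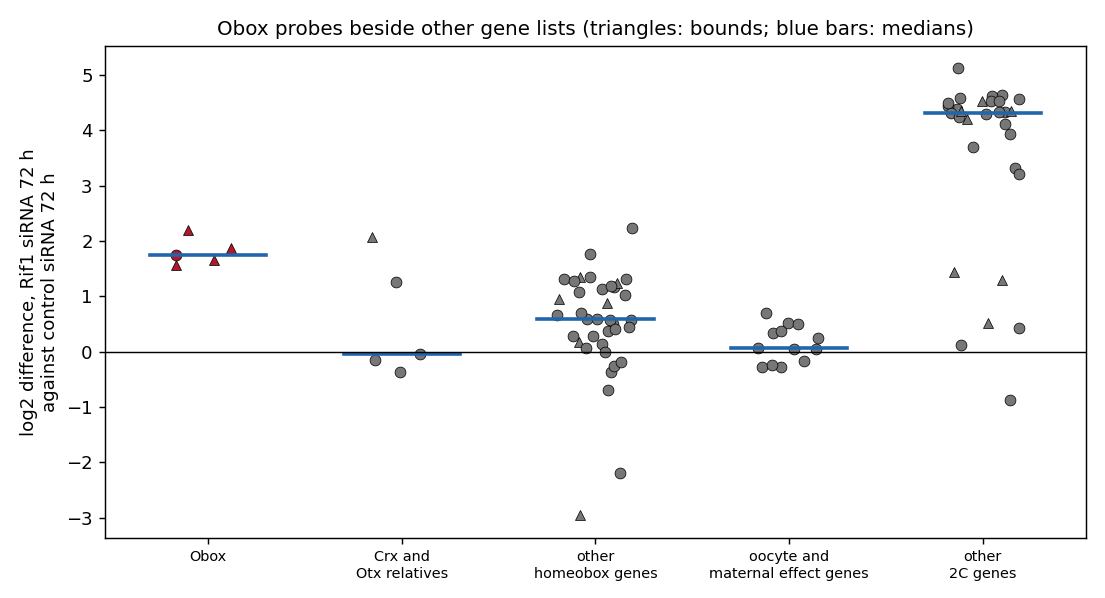
Log2 difference at 72 h, Rif1 siRNA minus control siRNA, for the Obox probes (red) and for the probes of 4 other lists that passed the filter (grey). Circles are measured, triangles are bounds and blue bars are medians, which stand at 1.75 for Obox, -0.04 for Crx and Otx relatives, 0.59 for other homeobox genes, 0.07 for oocyte and maternal effect genes and 4.32 for other 2C genes.

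The genes most like Obox6 in profile were sought among 22517 other probes well above background on all 4 arrays, by the distance between log2 levels after each probe's mean was subtracted. The nearest was Ccno, which encodes cyclin O, with levels of 1.01, 1.30, 3.24 and 4.30 in untreated, control siRNA, 48 h and 72 h cells and a distance of 0.147. It was followed by Stox1 (0.249), Trpa1 (0.289), 1700010D01Rik (0.299) and Ttc30b (0.299). Since these genes were picked over the same 4 levels, their order of arrays follows from the choice. With 4 arrays many profiles are close, since 206 probes had a Pearson correlation of 0.99 or more with Obox6.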

How the data were processed

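Total RNA of E14tg2a cells was labelled with Cy3 and hybridised to 4 arrays, 1 for each group named in the labels. The authors deposited the output of Agilent Feature Extraction 11.5.1.1 (submitters' processing notes), in which the processed signal of a spot is an intensity after background subtraction and detrending within the array. The raw mean and local background signals that the authors deposited are intensities too. The deposited series table holds linear, uncentred ratios of each signal to the array's 75th percentile (medians 0.0619, 0.0601, 0.0637 and 0.0634 for untreated, control siRNA, 48 h and 72 h), and 100.0% of its spots were within 0.01 (log2) of the levels computed here. Probe positions are on mm9.

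Here, control and outlier spots were left out, log2 signals were scaled to the 75th percentile, and spots of a probe were averaged. The filter asked for the 20th percentile on any array and a detected or compromised flag on at least 2. Calls used 2-fold. Named were every Obox probe, Rif1, neighbours over 2-fold, list genes over 2-fold at 48 h and 72 h (at most 5 a list) and the 5 nearest profiles; other list genes were named after their values were seen. The family, the lists and the comparisons were chosen with earlier results of these data known. The methods mention a repeat experiment, which was not analysed here. No test was run. Symbols and promoters came from RefSeq tables. Python 3.11.15 with pandas 2.3.3 and numpy 2.4.6 were used, with limma 3.58.1 in R 4.3.3 for normexp.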

Additional observations from a re-analysis of the deposited data

How the results depend on the processing

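No paired analysis was possible because each group had 1 array, and no array could be left out. Under quantile normalization, median scaling, the deposited ratios, outlier spots kept and no filter, the count of Obox probes over 2-fold higher was 5 at both times and the medians moved by less than 0.256 (log2, the SD of control siRNA minus untreated levels). With normexp background correction at an offset of 50, which raises all low signals by its construction, the count was 2 at 72 h and at 48 h, and the median was 0.86 at 72 h and 1.00 at 48 h. With dim signals as given the median was 2.91 at 72 h and 3.07 at 48 h, and -0.58 for control siRNA against untreated cells, where 5 of the 6 signals are dim. With the filter on all 4 arrays only Obox6 remained, so the count was 1 at both times and the median was 1.30 at 48 h, and 0.44 between 48 h and 72 h. At a 4-fold threshold the count was 1 at 72 h and 2 at 48 h. Against untreated cells the median was 1.30 at 72 h and 1.51 at 48 h, with 4 and 5 probes over 2-fold. The Obox6 difference from control siRNA was between 1.42 and 1.75 at 72 h and between 1.02 and 1.30 at 48 h under these settings, and against untreated cells it was 2.27 and 1.83. By Pearson correlation, 0 of the 5 nearest genes were among the 5 highest. A planned match of translated probes to Obox proteins was not run.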
